A study of Mus musculus with 2 samples.

Results

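The genes described here are 10 smooth muscle contractile genes, taken by name out of the 32285 genes counted in the series, and all 10 were found. They are Acta2, Actg2, Myh11, Myl9, Mylk, Tagln, Cnn1, Tpm2, Des and Casq2. Their RNA was read in single cells of the RPE, choroid and sclera of C57BL/6J mice of 3 months, collected 7 days after a subretinal injection of 1 µl. The control group received PBS, and the Dox group a solution of 100 ng/µl doxorubicin, an anthracycline that damages DNA. The labels name no transgene or deletion in either group, so that both groups share strain, age and surgery and differ in the injected fluid. Each group was a pool of 10 eyes taken from 5 mice, which left 1 library per condition and no replicate. Treatment and library therefore cannot be told apart, no test between conditions was made, and every 95% interval below covers counting error only.

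In a smooth muscle cell, calcium bound to calmodulin activates the myosin light chain kinase (Mylk), which phosphorylates the regulatory light chain (Myl9) on the smooth muscle myosin heavy chain (Myh11). The motor then pulls on thin filaments built from the smooth muscle actins (Acta2 and Actg2), on which tropomyosin (Tpm2), calponin (Cnn1) and transgelin (Tagln) sit. Desmin (Des) is the intermediate filament of muscle cells, and calsequestrin 2 (Casq2) binds calcium in the sarcoplasmic reticulum. In the choroid such cells wrap the arterioles, and many of the genes are driven by serum response factor with its cofactor myocardin through a DNA element called the CArG box.

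The genes lie apart in the genome. On the GRCm38 assembly (mm10) with GENCODE vM21 annotation, Acta2 (ENSMUSG00000035783) spans chr19:34241090-34255590 on the minus strand, Myh11 spans chr16:14194535-14291372 on the minus strand and Tagln spans chr9:45929619-45936058 on the minus strand. Myl9 spans chr2:156775420-156781658, Mylk chr16:34745210-35002420, Des chr1:75360329-75368579, Cnn1 chr9:22099216-22109630 and Casq2 chr3:102086415-102146514, all on the plus strand. Tpm2 spans chr4:43514711-43523765 and Actg2 chr6:83512905-83536265, both on the minus strand. Of the 10 genes, 7 had a promoter window in the RefSeq table for GRCm38.p6, which runs from 250 bases before to 50 bases after the start. The windows were searched on the gene's strand, which for this palindromic pattern covers both strands, for the CArG box, which is CC, then 6 letters that are each A or T, then GG. An exact match was found for 1 of the 7 (Myl9) and in 535 of all 32851 windows (1.63%). The stretch of the Myl9 promoter from 250 to 51 bases before the start (chr2:156775214-156775413, plus strand) is shown because it holds that match, in capitals, 161 to 152 bases before the start.

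Myl9 promoter: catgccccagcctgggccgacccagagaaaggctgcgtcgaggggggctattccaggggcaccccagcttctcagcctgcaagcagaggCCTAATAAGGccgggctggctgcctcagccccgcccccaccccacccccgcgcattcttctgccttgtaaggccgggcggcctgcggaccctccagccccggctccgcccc

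With 1 letter allowed to differ, a pattern chosen after the sequences had been seen, 3 of the 7 windows matched (Acta2, Myl9 and Casq2), against 21.1% of all windows. The Acta2 window held 2 such matches, shown in capitals because Acta2 is the gene that stood apart from the others in RPE cells. The Casq2 window also held 2, which overlap each other. The Acta2 matches lie 84 to 75 and 34 to 25 bases before the start. The stretches of 30 bases shown around them span chr19:34255438-34255467 and chr19:34255388-34255417 on the minus strand.

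Acta2 match upstream: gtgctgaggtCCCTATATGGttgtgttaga
Acta2 match nearer the start: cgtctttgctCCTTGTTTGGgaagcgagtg

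A match in letters is a description and not a measured binding site. Myh11, Tagln and Actg2 had no window in the table, and the Mylk window lies at a start inside the gene. The starts used for Acta2, Tpm2, Myl9 and Cnn1 also lie inside the spans given above, closer to the edge of the gene. Both Acta2 matches lie within the Acta2 span.

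Cells were typed with genes outside the list, so that the 10 genes did not choose the cells they are measured in. A smooth muscle cell had at least 5 UMIs (sequence tags added so that each captured RNA molecule is counted once) and 1000 CPM (UMIs per 1000000 UMIs of the cell or cell type) of a 10-gene panel (Map3k7cl, Olfr558, 2210407C18Rik, Lmod1, Kcnmb1, Synpo2, Pln, Nrip2, Notch3 and Rgs4), from at least 3 of its genes. A fibroblast had at least 5 UMIs and 2000 CPM of Dcn (decorin), and an RPE cell at least 10 UMIs of Rpe65, the isomerase of the visual cycle. Cells that met the gates of more than 1 type were set aside, except that smooth muscle cells could also meet a pericyte gate. The control library held 20180 cells after filtering and the Dox library 15426. Before filtering, 441 cell barcodes were present in both libraries, out of 20381 in control and 15649 in Dox. Smooth muscle cells numbered 555 in control (2.75% of cells, interval 2.53 to 2.99) and 276 in Dox (1.79%, 1.59 to 2.01). Near the gate, 40 control and 14 Dox cells that met its other limits had between 1000 and 1250 CPM of the panel, and 26 and 5 had between 800 and 1000. Fibroblasts numbered 10793 and 8157, and RPE cells 1306 and 1477. The share of smooth muscle cells was lower in Dox by more than counting error, and with 1 dissociation per condition it is a share of captured cells.

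The smooth muscle label was checked against markers that the gate did not use. Myocd, the myocardin gene, was at 63.9 CPM in smooth muscle cells and 0.428 CPM in fibroblasts of the control library, and at 69.4 against 0.186 CPM in Dox. In pericytes outside the gate it was at 20.1 CPM in control (5 UMIs) and 14.2 CPM in Dox (1 UMI). The log2 ratio of smooth muscle cells over these pericytes was 2.29 in Dox, with an interval that held 0. Across a list of 10 striated muscle genes the sum was 4.21 CPM in control and 1.93 in Dox, so that RNA of the genes on that list was near 0 in these cells. RNA of other cells was present as well. Rpe65 stood at 232 and 291 CPM and Dcn at 224 and 157 CPM in the smooth muscle cells of the control and Dox libraries. Summed marker lists of the RPE (3802 and 5689 CPM), melanocytes (2068 and 641 CPM), fibroblasts (1386 and 881 CPM), myeloid cells (204 and 112 CPM), endothelial cells (117 and 120 CPM), lymphocytes (9.48 and 10.3 CPM) and Schwann cells (9.48 and 5.78 CPM) were read in them. The pericyte list stood at 10219 and 11099 CPM, close to its level in the pericytes outside the gate (10179 and 12242 CPM), so that this list did not set the smooth muscle cells apart from pericytes. Of the smooth muscle cells, 295 in control and 156 in Dox also met the pericyte gate, which rests on 8 genes such as Rgs5 and Kcnj8.

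Together the 10 genes made up 4.67% of all UMIs in smooth muscle cells of the control library and 4.65% in Dox. Acta2, the smooth muscle alpha actin, alone gave 2.04% and 2.03%. Its level was 20446 CPM (58223 UMIs) in the control and 20340 CPM (31666 UMIs) in the Dox library. Actg2, the gamma actin of enteric muscle, was far lower, at 219 and 195 CPM. Because the library captures the 5′ end of each molecule, these levels count molecules and were not divided by gene length. Reads that fit several actin genes could be assigned only by the authors' counting, so that the actin paralogs carry that uncertainty.

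Of the motor genes, Myl9 stood at 8343 CPM against 8414 CPM in Dox, and Myh11 at 4344 and 4616 CPM. The kinase Mylk was at 2378 and 2546 CPM. Among the proteins of the thin filament, Tagln was at 6991 and 6397 CPM, Tpm2 at 2938 and 2912 CPM and Cnn1 at 349 and 355 CPM. Des was at 571 and 574 CPM, and Casq2, the lowest of the 10, at 134 and 152 CPM. The order Acta2, Myl9, Tagln, Myh11, Tpm2, Mylk, Des, Cnn1, Actg2, Casq2 was the same in both libraries, and the intervals of neighbours did not overlap in 9 of 9 steps in either. The plot of levels by cell type shows the 10 genes in smooth muscle cells, fibroblasts, RPE cells and lymphocytes.

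**Figure D1:**
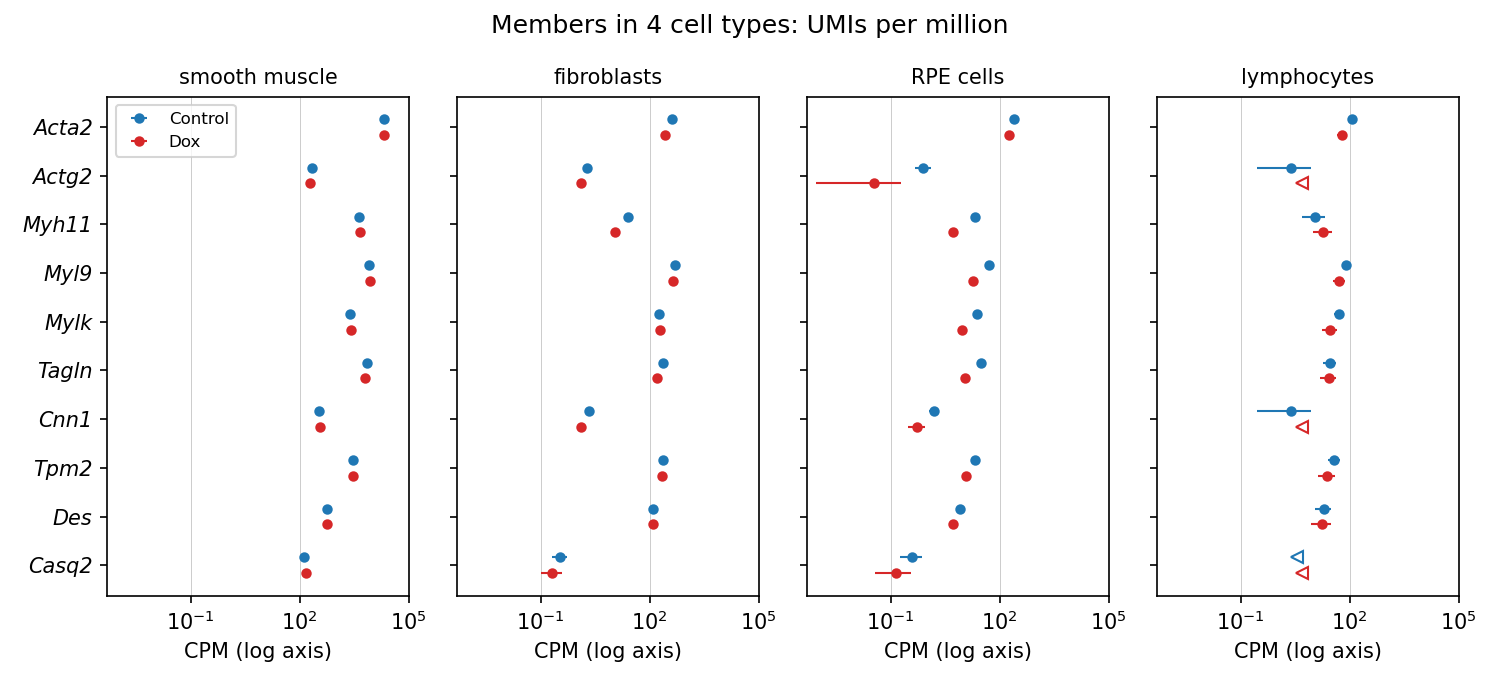
Level of each gene in CPM (log axis) in smooth muscle cells, fibroblasts, RPE cells and lymphocytes, with the control library in blue and the Dox library in red. Points are sums over cells with exact Poisson 95% intervals, and open triangles mark genes with 0 UMIs at the level that 3 UMIs would give. All genes sit highest in smooth muscle cells, from 134 CPM for Casq2 to 20446 CPM for Acta2 in control, and Acta2 is the highest of the 10 in RPE cells (248 CPM in control).

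Most of the genes were read in nearly every smooth muscle cell. After each cell was thinned to 2000 UMIs, which left 547 control and 271 Dox cells, Acta2 was found in 99.8% and 99.3% of them, Myl9 in 99.5% and 99.6%, and Myh11 in 98.5% and 99.3%. Actg2 (19.9% and 18.5%), Casq2 (21.2% and 23.6%) and Cnn1 (30.9% and 34.7%) were found in a minority. The median thinned smooth muscle cell held UMIs of 7 of the 10 genes and 86.0 UMIs of them in both libraries, and 98.9% of cells held 5 or more of the genes in each. The median fibroblast held 2 of the genes, and the median RPE cell and the median lymphocyte held 0.

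Levels varied among smooth muscle cells. The middle of the Acta2 distribution was 19328 CPM in control, with 8695 CPM at the 10th percentile and 33511 CPM at the 90th. For Tagln the same points were 5254, 1599 and 12826 CPM, which is a wider spread on a relative scale. In thinned cells the variance of Tagln was 10.2 times its mean in control and 9.16 times in Dox, and that of Acta2 9.07 and 9.19 times, where counting alone gives about 1. Mylk (2.20 and 2.21), Des (1.85 and 1.72) and Casq2 (1.39 and 1.51) had lower values of this measure. Their mean counts were lower as well, at 4.68, 1.12 and 0.293 UMIs per thinned control cell, against 40.3 for Acta2. At a given relative spread the measure rises with the mean, so that it does not rank these genes by their spread between cells. Over thinned cells, the closest pair was Acta2 with Myl9, with a Spearman rho of 0.69 over 547 control cells and 0.67 over 271 Dox cells, and Acta2 with Tagln followed at 0.65 in each. The lowest of the 45 pairs in control was Tagln with Casq2, at -0.17. In Dox that pair was at -0.07, and the lowest was Des with Casq2, at -0.08. The cells of a library share their preparation, and the correlations of rare genes are held down by their sparse counts.

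Casq2 also parted from the other genes when smooth muscle cells were divided by the pericyte gate. In cells that met it, Casq2 was higher than in the others, with a log2 ratio of CPM of 0.91 in control (interval 0.59 to 1.23) and 0.92 in Dox (0.50 to 1.37). Actg2 was lower in the same cells, with log2 ratios of -1.81 and -1.56, Cnn1 had log2 ratios of -1.35 and -0.72, and Tagln -0.93 and -0.67. Des did not differ beyond counting error, at -0.08 (-0.22 to 0.06) in control and -0.14 (-0.34 to 0.05) in Dox. Acta2, Myh11, Myl9, Mylk and Tpm2 lay between -0.50 and -0.15 in both libraries, each below 0 by its interval. The direction was the same in both libraries for each of the 10 genes, as the plot of cells with and without the pericyte gate shows.

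**Figure D2:**
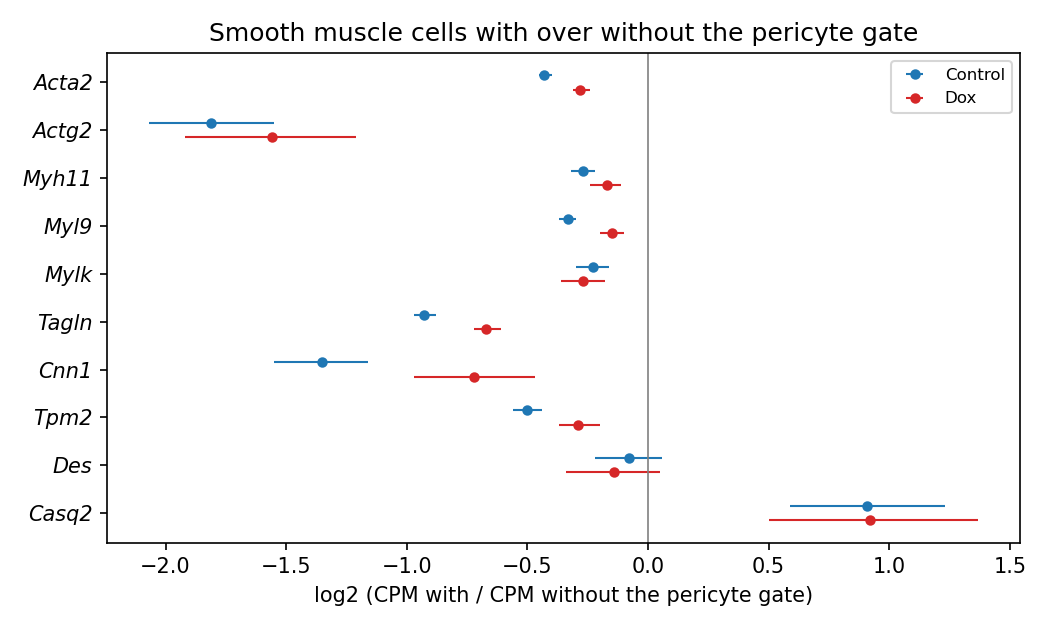
log2 ratio of CPM in smooth muscle cells that met the pericyte gate (295 control, 156 Dox) over those that did not (260 control, 120 Dox), for each gene, with exact conditional 95% intervals. Blue is control and red is Dox. Casq2 lies right of 0 (0.91 and 0.92), Des at 0 within its intervals, and Actg2, Cnn1 and Tagln farthest to the left.

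Against fibroblasts, the cells that make the collagen matrix and the most numerous type in both libraries, all 10 genes were over 4-fold higher in smooth muscle cells in both libraries. Among all genes with at least 50 UMIs over both types, 4.31% passed that fold in control and 4.34% in Dox. The median log2 ratio of the 10 genes was 5.31 in control and 5.79 in Dox, against -0.10 and -0.09 over all genes tested. The genes fell into steps. Casq2, Myh11, Cnn1 and Actg2 were the most restricted, with fibroblast levels under 1% of those in smooth muscle cells in both libraries. For Casq2 these were 0.342 and 0.206 CPM in the control and Dox libraries, and for Myh11 24.9 and 11.0 CPM.

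Acta2 and Tagln followed, at 1.97% and 3.22% of the smooth muscle level in control fibroblasts. Myl9, Mylk and Tpm2 reached 5.90%, 7.55% and 7.86% there, and Des reached 20.9%. Des stood at 120 CPM in control fibroblasts and 127 CPM in those of Dox, 4.78-fold and 4.52-fold below smooth muscle cells. How the RNA was spread over fibroblasts differed as well. In thinned control fibroblasts the 1% of cells with most UMIs of a gene held 37.7% of the Tagln UMIs and 29.6% of the Acta2 UMIs, against 7.24% for Myl9, 9.17% for Mylk and 11.6% for Des. The variance over the mean was 7.46 for Tagln and 9.27 for Acta2, and 1.74, 1.13 and 1.28 for Myl9, Mylk and Des. A few fibroblasts thus held much of the Tagln and Acta2 RNA, while Myl9, Mylk and Des were spread broadly.

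Lymphocytes, which do not make these proteins in quantity, served as the comparison for low levels, and droplets without cells were not analysed here. In lymphocytes Acta2 had 113 CPM (91.2 to 138) in the control library and 61.2 CPM (43.5 to 83.7) in the Dox library, and Myl9 had 77.1 and 51.8 CPM. Casq2 had 0 UMIs in lymphocytes of both libraries, where 3 UMIs would have given 3.56 and 4.71 CPM. Levels of Acta2, Tagln, Myl9, Mylk, Tpm2 and Des in fibroblasts were above those in lymphocytes by their intervals in both libraries. Mylk stood out in melanocytes, at 290 and 264 CPM, and 41.8% of thinned melanocytes held a UMI of it in each library, against 9.74% and 3.73% of lymphocytes. Myl9 stood at 462 CPM and 392 CPM in Schwann cells, which numbered only 44 and 31.

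Pericytes, the other mural cells of small vessels, were the type nearest to smooth muscle cells, and 61 in control and 20 in Dox did not meet the smooth muscle gate. The 10 genes summed to 18524 CPM (4615 UMIs) in the control pericytes and to 6413 CPM (451 UMIs) in those of Dox. Over 4-fold higher in smooth muscle cells than in these pericytes was 1 of the 10 genes in control (Cnn1), where 2.27% of all genes tested passed, and 8 of the 10 in Dox, where 6.39% passed. Des stood at 92.0% and 64.4% of the smooth muscle level, and Acta2 at 38.6% and 8.53%. The few cells differed widely, from 2004 CPM of the 10 genes at the 10th percentile to 45604 CPM at the 90th in control and from 1517 to 14154 CPM in Dox, and the 5 cells with most UMIs held 40.3% and 58.5% of them.

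Against RPE cells, the pigmented epithelium that serves the photoreceptors, all 10 genes were again over 4-fold higher in smooth muscle cells, where 10.7% of all genes tested passed in control and 10.4% in Dox. The median log2 ratio of the 10 was 7.56 in control and 9.00 in Dox, against 0.18 and 0.13 over all genes tested. In 9 of the 10 genes RPE levels were under 50 CPM in both libraries, from 0.391 CPM for Casq2 to 49.7 CPM for Myl9 in control. Casq2, Cnn1 and Actg2 had 9, 36 and 18 UMIs in all control RPE cells and 4, 15 and 1 in Dox.

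Acta2 was the gene above that level in RPE cells, at 248 CPM (242 to 255) without and 178 CPM (173 to 183) with Dox. Other types outside the muscle reached a like level in control, with melanocytes at 229 CPM (214 to 244) and the 44 Schwann cells at 174 CPM (111 to 262), and fibroblasts stood higher, at 404 CPM. In Dox, melanocytes were at 101 CPM (84.7 to 121), Schwann cells at 103 CPM (51.3 to 184) and fibroblasts at 265 CPM. A UMI of Acta2 was found in 82.0% of control and 80.7% of Dox RPE cells, at median depths of 16834 and 19204 UMIs. In lymphocytes the shares were 30.0% and 19.7% at 3736 and 4085 UMIs. After thinning to 2000 UMIs, 29.4% and 27.7% of RPE cells held one, against 18.4% and 13.0% of melanocytes and 16.9% and 8.21% of lymphocytes. The share in RPE cells was therefore above that in lymphocytes at equal depth in both libraries.

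The balance between Acta2 and the other genes also differed between RPE cells and smooth muscle cells. RPE cells held 8.16 Acta2 UMIs per Tagln UMI in control (7.54 to 8.84) and 15.7 in Dox (5167 against 330 UMIs). Smooth muscle cells held 2.92 and 3.18, and myeloid cells, lymphocytes and melanocytes between 2.29 and 3.96. Of the panel UMIs in RPE cells, Lmod1 gave 416 of 714 in control and 466 of 594 in Dox. RPE cells with no UMI of the smooth muscle panel numbered 898 in control and 1035 in Dox. They held 16.7 (14.3 to 19.7) and 21.6 (18.3 to 25.7) Acta2 UMIs per Tagln UMI. Acta2 was at 188 and 165 CPM in these cells, and Tagln at 11.3 and 7.65 CPM. In lymphocytes with no panel UMI Acta2 was at 114 and 64.0 CPM and Tagln at 27.3 and 26.2 CPM. Among other cells with no panel UMI, Acta2 was at 208 and 93.2 CPM in melanocytes and at 263 and 200 CPM in fibroblasts. Acta2 took 70.5% of the UMIs of the 10 genes in RPE cells without panel UMIs in control and 76.8% in Dox, against 43.8% and 43.7% in smooth muscle cells. The plot of Acta2 against Tagln by cell type shows RPE cells to the right of all other types in both libraries.

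**Figure D3:**
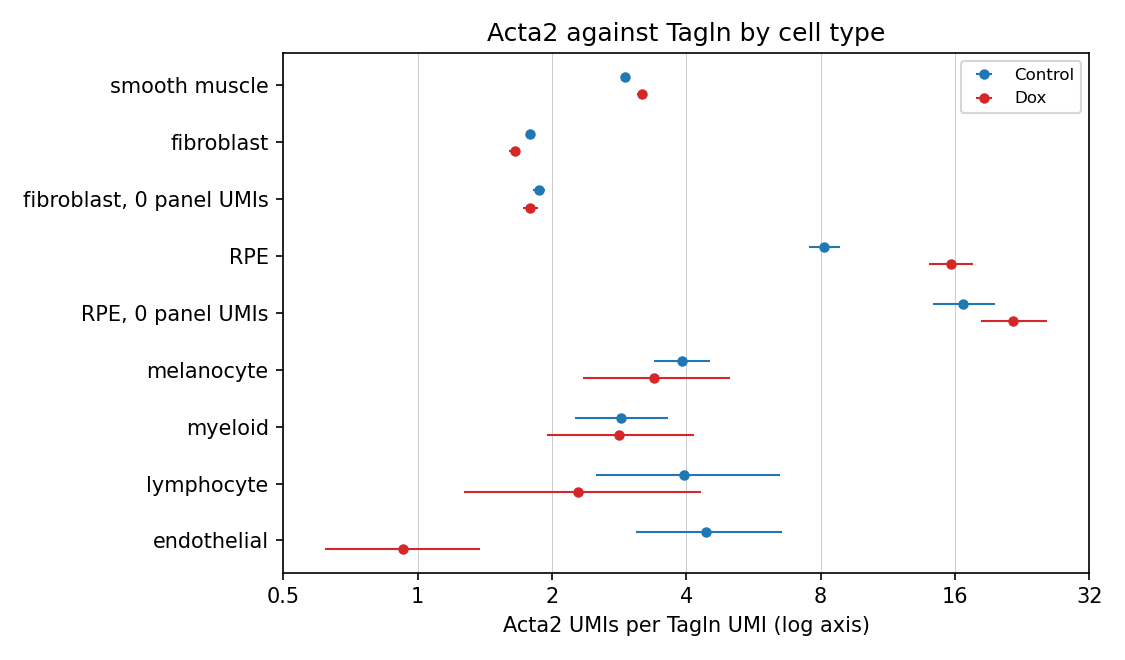
Acta2 UMIs per Tagln UMI (log axis) by cell type, and in fibroblasts and RPE cells with no UMI of the smooth muscle panel, with exact conditional 95% intervals. Blue is control and red is Dox. RPE cells lie at 8.16 and 15.7, and at 16.7 and 21.6 without panel UMIs, to the right of smooth muscle cells (2.92 and 3.18) and of every other type shown.

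Between the conditions, the level of the 10 genes in smooth muscle cells hardly differed. None of the 10 was past a 1.5-fold difference in either direction, where 3.28% of all genes tested were higher and 3.54% lower in Dox past that fold. A count of 0 among 10 genes is near that background. The log2 ratios of Dox over control lay between -0.17 (Actg2) and 0.18 (Casq2), with a median of 0.01, the same as over all genes tested. Tagln was lower in Dox by a log2 ratio of -0.13 (-0.16 to -0.09). Mylk at 0.10 (0.04 to 0.16) and Myh11 at 0.09 (0.05 to 0.13) were higher. For the other 7 genes the interval held 0, and for Acta2 it was -0.03 to 0.01. These intervals hold no variation between mice, so that ratios of this size cannot be set apart from the difference between any 2 preparations.

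In fibroblasts the genes divided. Of the 9 genes with at least 50 UMIs over both libraries, 3 were over 1.5-fold lower in Dox and 0 higher, where 3.49% of all genes tested were lower and 1.25% higher. Myh11 had a log2 ratio of -1.18 (-1.33 to -1.04), Cnn1 of -0.71 (-1.16 to -0.26) and Acta2 of -0.61 (-0.64 to -0.57). Tagln had -0.48 and Actg2 -0.57, short of that fold. The broadly spread genes lay near 0, with Mylk at 0.05 (0.01 to 0.09), Des at 0.09 (0.04 to 0.14), Tpm2 at -0.09 and Myl9 at -0.13. The median of the 9 was -0.48, against 0.01 over all genes tested, and it was -0.13 without the tenth of cells with most UMIs. In thinned cells only 8 genes had enough UMIs, and their median was -0.15. The lower values were those of Myh11, Cnn1 and Actg2, at 24.9 CPM or less in control fibroblasts, and of Acta2 and Tagln. A UMI of Acta2 was found in 24.3% of thinned control fibroblasts, against 20.7% for Des. In thinned control lymphocytes the shares were 16.9% for Acta2 and 3.59% for Des. The 1% of thinned control fibroblasts with most Acta2 UMIs held 29.6% of them, against 11.6% for Des. Under the alternatives run, the ratio of Acta2 lay between -0.69 and -0.40 and that of Tagln between -0.57 and -0.13.

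In RPE cells 7 of 8 genes with enough UMIs were over 1.5-fold lower in Dox, where 4.64% of all genes tested were. Myh11 was lowest, at a log2 ratio of -1.98 (-2.25 to -1.71), from 20.5 CPM to 5.20 CPM. Myl9 (-1.46), Tagln (-1.42), Mylk (-1.38), Cnn1 (-1.60), Tpm2 (-0.84) and Des (-0.60) followed, and Acta2, at -0.48 (-0.53 to -0.42), was the one that did not pass. The median of the 8 was -1.40, against -0.01 over all genes tested, and it was -0.75 by the mean of the cells' own CPM. These were levels of 49.7 CPM and less, apart from Acta2. Myl9, Mylk, Tpm2 and Des were lower in RPE cells than in lymphocytes in both libraries. Tagln and Myh11 were lower in RPE cells only in Dox, at 11.4 against 26.7 CPM and 5.20 against 18.8 CPM. In control, RPE cells had 30.4 against 28.5 CPM of Tagln and 20.5 against 10.7 CPM of Myh11. Cnn1 had 2 UMIs in control lymphocytes and 0 in Dox. The plot of ratios between conditions sets smooth muscle cells, fibroblasts and RPE cells side by side.

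Pericytes had lower values in Dox as well, a comparison taken up after the values had been seen. Of 7 genes with enough UMIs, 6 were over 1.5-fold lower and 0 higher, where 15.8% of all genes tested were lower and 10.4% higher. Acta2 had a log2 ratio of -2.19 (-2.46 to -1.92), from 7891 CPM to 1735 CPM, and Tagln of -1.99 (-2.41 to -1.59). Tpm2 (-1.22), Mylk (-1.18), Myl9 (-0.98) and Myh11 (-0.75) followed, and Des was at -0.51 (-1.18 to 0.11). The median of the 7 was -1.18, against -0.06 over all genes tested. By cell, the middle of the summed level was 8531 CPM in control and 5446 CPM in Dox. The smooth muscle panel stood at 815 and 739 CPM in these pericytes, the RPE list at 4512 and 8716 CPM and the fibroblast list at 7089 and 8375 CPM, and their part in the lower values was not tested. The values rest on 61 and 20 cells and on how the gates divide them. With a stricter smooth muscle gate, which leaves more cells among the pericytes, the median was -0.07. With cells of more than 1 gate counted in every type it was 0.10. No gene passed the 1.5-fold difference under either setting, for which no share over all genes is given.

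**Figure D4:**
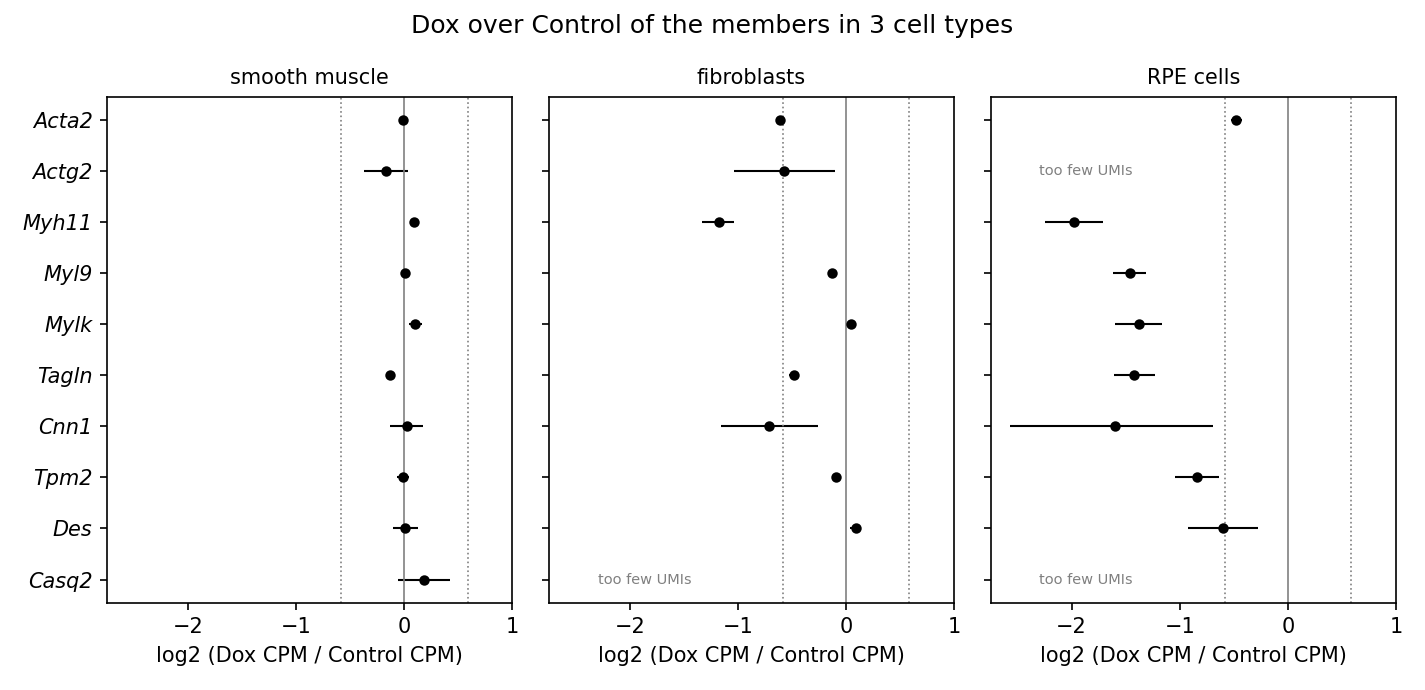
log2 ratio of Dox over control CPM for each gene in smooth muscle cells, fibroblasts and RPE cells, with exact conditional 95% intervals. Dotted lines mark a 1.5-fold difference, and genes with fewer than 50 UMIs over both libraries are named as such. In smooth muscle cells all genes lie between -0.17 and 0.18, and in RPE cells all that were measured lie below 0.

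Several measured quantities moved with the lower values in fibroblasts and RPE cells, and their part in them was not tested. The share of smooth muscle cells was lower in the Dox library (1.79% against 2.75%), and so was Acta2 in pericytes (log2 ratio -2.19), myeloid cells (-0.64), lymphocytes (-0.88) and melanocytes (-1.17). The summed fibroblast and melanocyte lists in RPE cells were lower as well. RPE cells with 2 or more panel UMIs were 124 of 1306 in control and held 43.5% of all UMIs of the 10 genes in RPE cells, and 108 of 1477 in Dox, where they held 15.4%. The summed level of the 10 genes in those cells was 1418 CPM against 387 CPM in Dox. Lmod1 gave most panel UMIs in RPE cells, 416 of 714 in control and 466 of 594 in Dox. It stood at 18.1 and 16.1 CPM there, against 7.31 and 7.72 CPM in fibroblasts. Grouping RPE cells by the panel therefore rested largely on Lmod1. In RPE cells without panel UMIs the median log2 ratio was -0.56, 3 of 7 genes passed the 1.5-fold difference, and Acta2 was at -0.19 (-0.26 to -0.11). In fibroblasts without panel UMIs the median was -0.31 and 2 of 9 passed, with Myh11 at -1.08 (-1.27 to -0.88). Other types without panel UMIs also had medians below 0. The median was -0.66 in melanocytes (5 of 7 passed) and -0.50 in myeloid cells (3 of 7). It was -0.84 in lymphocytes (2 of 3) and -0.20 in endothelial cells (1 of 4). No share over all genes is given for cells without panel UMIs, so that the counts that passed there have no background.

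**Figure D5:**
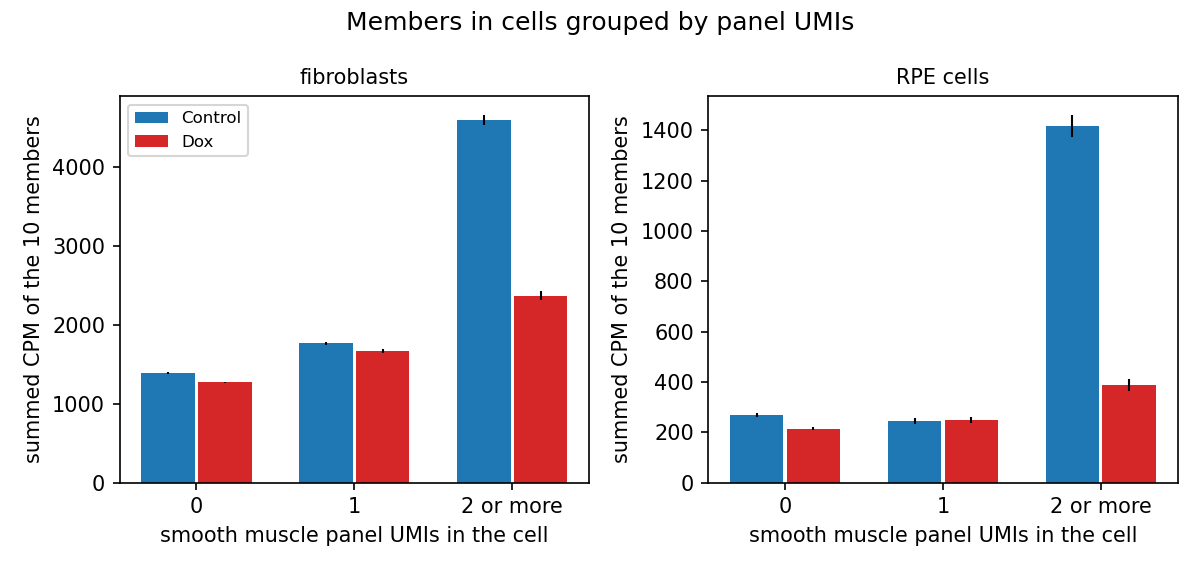
Summed CPM of the 10 genes in fibroblasts and RPE cells grouped by the UMIs of the smooth muscle panel in the cell (0, 1, or 2 or more), with exact Poisson 95% intervals. Blue is control and red is Dox. In RPE cells with 2 or more panel UMIs the sum is 1418 CPM for control against 387 CPM for Dox, and the libraries are much closer in the cells with fewer. Most panel UMIs in RPE cells are of Lmod1.

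Endothelial cells, for which no share over all genes is given, showed a value of the opposite direction for Tagln. Tagln stood at 30.7 CPM in 301 control cells (36 UMIs) and at 83.0 CPM in 152 Dox cells (55 UMIs), a log2 ratio of 1.43 (0.80 to 2.08), while Acta2 was at -0.83 (-1.31 to -0.37) in the same cells. UMIs of Tagln were found in 26 control and 12 Dox endothelial cells, so that few cells carried the value. In endothelial cells without panel UMIs, Tagln had 35 UMIs in control and 26 in Dox. Its log2 ratio there was 0.37, with an interval that held 0 (-0.42 to 1.14).

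The 10 genes were set beside 41 other contractile genes. Of these, 4 (Lmod1, Synpo2, Kcnmb1 and Pln) are in the panel that chose the smooth muscle cells, which fixed their direction, and they are left out of the counts. Of the other 37, 33 had enough UMIs in control, and 14 of the 33 were over 4-fold higher in smooth muscle cells than in fibroblasts, where 4.31% of all genes tested passed. None was over 4-fold lower, and the median log2 ratio was 1.33. In Dox 12 of 32 passed, where 4.34% of all genes did, with a median of 1.07. The calcium handling genes held some of the highest values. Kcnmb1, the beta subunit of the calcium-activated potassium channel, had a log2 ratio of 7.90 in control, and Pln, the inhibitor of the sarcoplasmic calcium pump, 7.63, but both are panel genes. Outside the panel, Kcnma1, the pore of that channel, had 6.33 and Cacna1c, the calcium channel of the plasma membrane, 3.83. Among genes of the light chain phosphatase, Ppp1r14a, an inhibitor of it, had 4.03, Ppp1r12a 3.60 and Ppp1r12b 3.55. Of the non-muscle motor and light chain genes, Myh9 (-0.88), Myh10 (-1.25), Myl12a (-1.55) and Myl12b (-0.88) went the other way. Myl6, in the same group, was over 4-fold higher in smooth muscle cells, at 2.21. The cytoplasmic actin Actg1 was lower, at -1.07, while Actb was at 0.68. Srf itself was at 1.33 (0.90 to 1.74) and its cofactor genes Mrtfa and Mrtfb at 0.92 and -0.07, so that Myocd, at 7.22, was the one of these 4 over 4-fold higher.

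Between the conditions, 0 of the 33 genes outside the panel passed a 1.5-fold difference in smooth muscle cells, and their median log2 ratio was -0.01. Of all genes tested, 3.28% were higher and 3.54% lower in Dox past that fold, so that a count of 0 is near the background. The 4 panel genes did not pass it either. Those farthest from 0 by interval were Myh9 at -0.46 (-0.73 to -0.20) and, in the panel, Synpo2 at 0.43 (0.11 to 0.74) and Pln at 0.36 (0.20 to 0.51). Atp2a2, the calcium pump that Pln inhibits, was at 0.23 (0.12 to 0.34), and Ppp1r14a at -0.28 (-0.44 to -0.13).

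The genes outside the list whose levels were most like its mean, over the 18 points of 9 cell types in 2 libraries, were Tpm1 (Pearson r of log2(CPM + 1) of 0.969), Pde3a (0.967), Mustn1 (0.963), Gpr20 (0.962), Ebf2 (0.959), Rgs4 (0.957), Myocd (0.955) and Map3k20 (0.955). Rgs4 is in the panel. The points share libraries and depth, and the values are a description. Within the list the likeness to the mean ran from 0.867 (Cnn1) and 0.916 (Mylk) to 0.979 (Tagln).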

How the data were processed

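The authors dissociated the RPE, choroid and sclera, prepared 5′ single-cell libraries and counted reads on mm10 with Cell Ranger (the header names version 4.0.0). The values they deposited are raw UMI counts per gene and cell, with no normalization. From these counts, cells were kept by the study's limits (UMIs above 500, genes above 200 and below 6000, the ratio of log10 genes to log10 UMIs above 0.8, mitochondrial UMIs below a share of 0.2), which left 115611226 UMIs in control and 99273166 in Dox. The members and gene lists were chosen with earlier results of these data known, and the gate thresholds were set after the panels' values had been seen, without regard to the members. Other panels needed 5 UMIs of 3 genes and 3000 (pericyte), 2000 (endothelial), 5000 (myeloid), 1000 (lymphocyte, Schwann) or 10000 CPM (melanocyte, with under 1000 CPM of Rpe65). Cells of more than 1 gate were set aside, and no doublet caller was run. UMIs were summed per type and library and given per 1000000 UMIs (CPM). Intervals (95%) are exact Poisson for CPM, Clopper-Pearson for shares and exact conditional binomial for ratios. Ratios needed 50 UMIs over both sides. The named genes are the 10 members, the marker lists, 41 other contractile genes and the 8 genes most like the members. Marker lists are given as summed CPM. Thinning drew 2000 UMIs per cell. Python 3.11.15, numpy 2.4.6, scipy 1.17.1, pandas 2.3.3, scikit-learn 1.9.0, leidenalg 0.10.2 and matplotlib 3.10.9 were used. The ratios and intervals were tested on simulated Poisson counts. Those counts hold no variation between cells or mice, so that the test covers counting error only.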

Additional observations from a re-analysis of the deposited data

Results flagged for a closer look

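Myh11, the myosin heavy chain, and Mylk, the light chain kinase, had intervals of opposite sign in different cell types. On the log2 scale, Dox over control, Myh11 had 0.09 in smooth muscle cells, -1.18 in fibroblasts, -1.98 in RPE cells and -0.75 in pericytes. Mylk had 0.10 in smooth muscle cells and 0.05 in fibroblasts, against -1.38 in RPE cells and -1.18 in pericytes, and Des had 0.09 in fibroblasts against -0.60 in RPE cells. With 1 library per condition the difference between cell types was not tested.

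Cells that met both the RPE and the smooth muscle gate were set aside from every comparison, and they numbered 2 in control and 5 in Dox. Each held 7 or 8 of the 10 genes and from 181 to 426 UMIs of them, with 11 to 49 UMIs of Rpe65 and 13 to 39 of the smooth muscle panel. Their total UMIs ran from 6113 to 30473. No group of 4 or more libraries existed in which a library could stand apart from its group.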

How the results depend on the processing

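All 10 genes stayed over 4-fold higher in smooth muscle cells than in fibroblasts and than in RPE cells under every alternative run, in both libraries, and none of the 10 passed a 1.5-fold difference between conditions in smooth muscle cells under any of them. The share of smooth muscle cells moved in control to 1.82% with a stricter gate, 3.00% with a looser gate, 3.98% by clustering and 3.21% with cells of more than 1 gate counted, and in Dox to 1.35% with the stricter gate and 2.09% by clustering, and it was lower in Dox under each. Clustering without the 10 genes put 797 of the 831 gated cells into 1 of 25 clusters and moved the median log2 ratio in smooth muscle cells from 0.01 to 0.13. The median in fibroblasts moved from -0.48 to -0.13 without the tenth of cells with most UMIs, to -0.26 by the mean of the cells' own CPM, to -0.15 after thinning, to -0.40 with a higher Dcn minimum and to -0.31 without cells with panel UMIs, an alternative chosen after seeing the data. The median in RPE cells moved from -1.40 to -0.83 with cells of more than 1 gate counted, -1.15 without the tenth of cells with most UMIs, -0.75 by the mean of cells, -0.78 after thinning and -0.56 without panel UMIs. These medians are not all over the same genes. After thinning, 8 rather than 9 genes had enough UMIs in fibroblasts. In RPE cells 7 rather than 8 had enough after thinning, without the tenth of cells with most UMIs and without panel UMIs. Genes over 1.5-fold lower ran from 1 (of 8 or 9 with enough UMIs) to 4 (of 10) in fibroblasts. In RPE cells they ran from 3 (of 7) to 7 (of 8). No share over all genes is given under the alternatives, so that the counts of genes that passed there, in any cell type, have no background. The cause of the shifts in medians and counts was not tested. In smooth muscle cells, fibroblasts and RPE cells no called value changed sign under any of the 15 settings. In pericytes, where all alternatives were chosen after seeing the data, the median moved from -1.18 to -0.07 with the stricter smooth muscle gate, with Myl9 at 0.03 and Tagln at 0.12. It reversed to 0.10 with cells of more than 1 gate counted, with Acta2 at 0.09, Tpm2 at 0.09, Mylk at 0.10, Myl9 at 0.12 and Myh11 at 0.15. Both settings add cells that meet the smooth muscle gate of the report to the pericytes. No paired analysis was possible because each condition had 1 library. The depth limits Casq2, Cnn1 and Actg2 outside smooth muscle cells, where they had few UMIs.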
